A study of Homo sapiens with 12 samples.

Results

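The MHC class I antigen presentation genes described here are 9 genes matched by symbol in the deposited count table, out of 58735 genes in it: the heavy chains HLA-B and HLA-C, the light chain B2M, the transporter subunits TAP1 and TAP2, the loading factor TAPBP, the trimming enzymes ERAP1 and ERAP2, and the transactivator NLRC5. Polyadenylated RNA was sequenced from 786-O, a widely used human cell line derived from a clear cell kidney cancer, in 12 libraries, 3 in each of 4 groups. The groups were xenografts with BBOX1 re-expression, xenografts with the empty vector control, cultured cells with BBOX1 re-expression and cultured cells with the empty vector control. BBOX1 makes carnitine from gamma-butyrobetaine. Genes were delivered by lentivirus and infected cells were kept under puromycin or neomycin, depending on the vector; the labels do not say whether either line was a clone. Culture was in DMEM with FBS and antibiotics, and xenografts were grown in NOD SCID gamma (NSG) mice of 6 to 8 weeks on a regular diet. NSG mice lack mature T, B and NK cells but keep myeloid, stromal and vascular cells of their own, so these hosts have no adaptive immune response of their own. Whether the 3 libraries of a group are separate cultures or mice is not stated in the labels; the p-values therefore cover no more than the scatter among these libraries, part or all of which may be technical.

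Class I molecules carry short peptides from inside the cell to its surface, where cytotoxic T cells and NK cells read them. The proteasome cuts proteins into peptides, the TAP1-TAP2 pump moves these into the endoplasmic reticulum, ERAP1 and ERAP2 trim them, and tapasin (TAPBP) loads them onto a heavy chain paired with beta-2 microglobulin (B2M). Interferons raise transcription of most of these genes through IRF factors at GAAA repeats, and NLRC5 acts through a promoter module that RFX, CREB/ATF and NF-Y proteins occupy.

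Stretches of the members' promoters are shown because those elements lie in them. RefSeq windows of 300 bases (GRCh38.p14; 250 before to 50 after a start) were at hand for 8 of the 9 members, 11 windows in all, and none for NLRC5. The patterns were chosen after the windows had been seen and were searched on both strands: GAAA followed after any 2 bases by GAAA (the GAAA repeat) and GAANNGAAA, forms of the interferon element that can overlap each other, TGACG, the core of the CREB/ATF site, and CCAAT, the core of the NF-Y site. Each stretch below runs 5′ to 3′ on the gene's strand, and capitals mark a match to any of these patterns or to its reverse complement.
HLA-B: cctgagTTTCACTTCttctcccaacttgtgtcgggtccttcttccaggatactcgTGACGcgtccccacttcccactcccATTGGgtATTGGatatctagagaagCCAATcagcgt
HLA-C: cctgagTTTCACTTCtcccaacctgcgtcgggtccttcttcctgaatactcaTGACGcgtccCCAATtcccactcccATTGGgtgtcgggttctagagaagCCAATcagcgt
B2M: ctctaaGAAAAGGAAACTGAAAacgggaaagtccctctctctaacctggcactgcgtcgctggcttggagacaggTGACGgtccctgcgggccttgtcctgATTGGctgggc
TAP1: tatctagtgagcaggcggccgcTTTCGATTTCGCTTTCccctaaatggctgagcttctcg
TAP2: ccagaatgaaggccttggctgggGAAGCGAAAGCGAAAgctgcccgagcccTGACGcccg
TAPBP: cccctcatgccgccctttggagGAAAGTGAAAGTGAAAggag
The first lies at chr6:31357225-31357340 on the minus strand (161 to 46 bases before the start) and the HLA-C stretch at chr6:31272138-31272249, minus strand (157 to 46 before). The B2M stretch lies at chr15:44711367-44711478 on the plus strand (150 to 39 before). On the minus strand of chromosome 6 the TAP1 stretch is at chr6:32853801-32853860 (156 to 97 before), the TAP2 stretch at chr6:32838766-32838825 (86 to 27 before) and the TAPBP stretch at chr6:33314079-33314120 (42 to 1 before). Starts are those of RefSeq, and gene models of GENCODE 29 begin further upstream at these genes. The TAP1 and TAPBP stretches lie wholly inside those models and the TAP2 stretch in part, so these may be transcribed. The HLA-B, HLA-C and B2M stretches lie outside them. These are reference bases, not the alleles of 786-O, and HLA-B and HLA-C are among the most variable human genes.

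The HLA-B and HLA-C stretches held the same 3 kinds of match in the same order, GAANNGAAA followed by TGACG and CCAAT. B2M had 2 overlapping GAAA repeats in place of the first, followed by TGACG and CCAAT. An interferon-type match (either GAAA form) was in 9 of the 11 member windows, at least 1 for each of the 8 members, against 10.6% of 35116 RefSeq windows. It was together with TGACG and CCAAT in 3 of the 11 (those of HLA-B, HLA-C and B2M), against 0.7% of all windows. For ERAP1 the GAAA repeat lay 2 to 11 bases after the first start, and for ERAP2 it lay 30 to 21 bases before the second of its starts. TAP2 held TGACG but not CCAAT, and TAPBP held neither. A match describes letters, not a bound site.

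Libraries held 13729031 to 26758712 counts, and levels are given as CPM, counts divided by library size after the 12 libraries were put on 1 scale by the trimmed mean of M values (TMM). BBOX1 itself, which checks the labels, was at 1272, 1373 and 1896 CPM in BBOX1 xenografts against 0.667, 0.327 and 0.827 CPM in empty-vector xenografts, and at 1079.5, 1096 and 1067 CPM in BBOX1 cells against 0 counts in each empty-vector cell library. Among BBOX1 xenografts, replicate 1 stood apart: a chi-square of counts per degree of freedom was 45.9 and 45.6 against replicates 2 and 3, 9.41 between those 2, 12.7 to 16.3 among empty-vector xenografts and 1.92 to 2.82 among cell libraries of a group. Values without it are given beside results that rest on BBOX1 xenografts. Line markers PAX8 and VIM were present in all 4 groups (PAX8 683, 699, 262 and 268 CPM on average in BBOX1 xenografts, empty-vector xenografts, BBOX1 cells and empty-vector cells), whereas LRP2 of the proximal tubule was at 0 counts in the cultured cells.

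**Figure D1:**
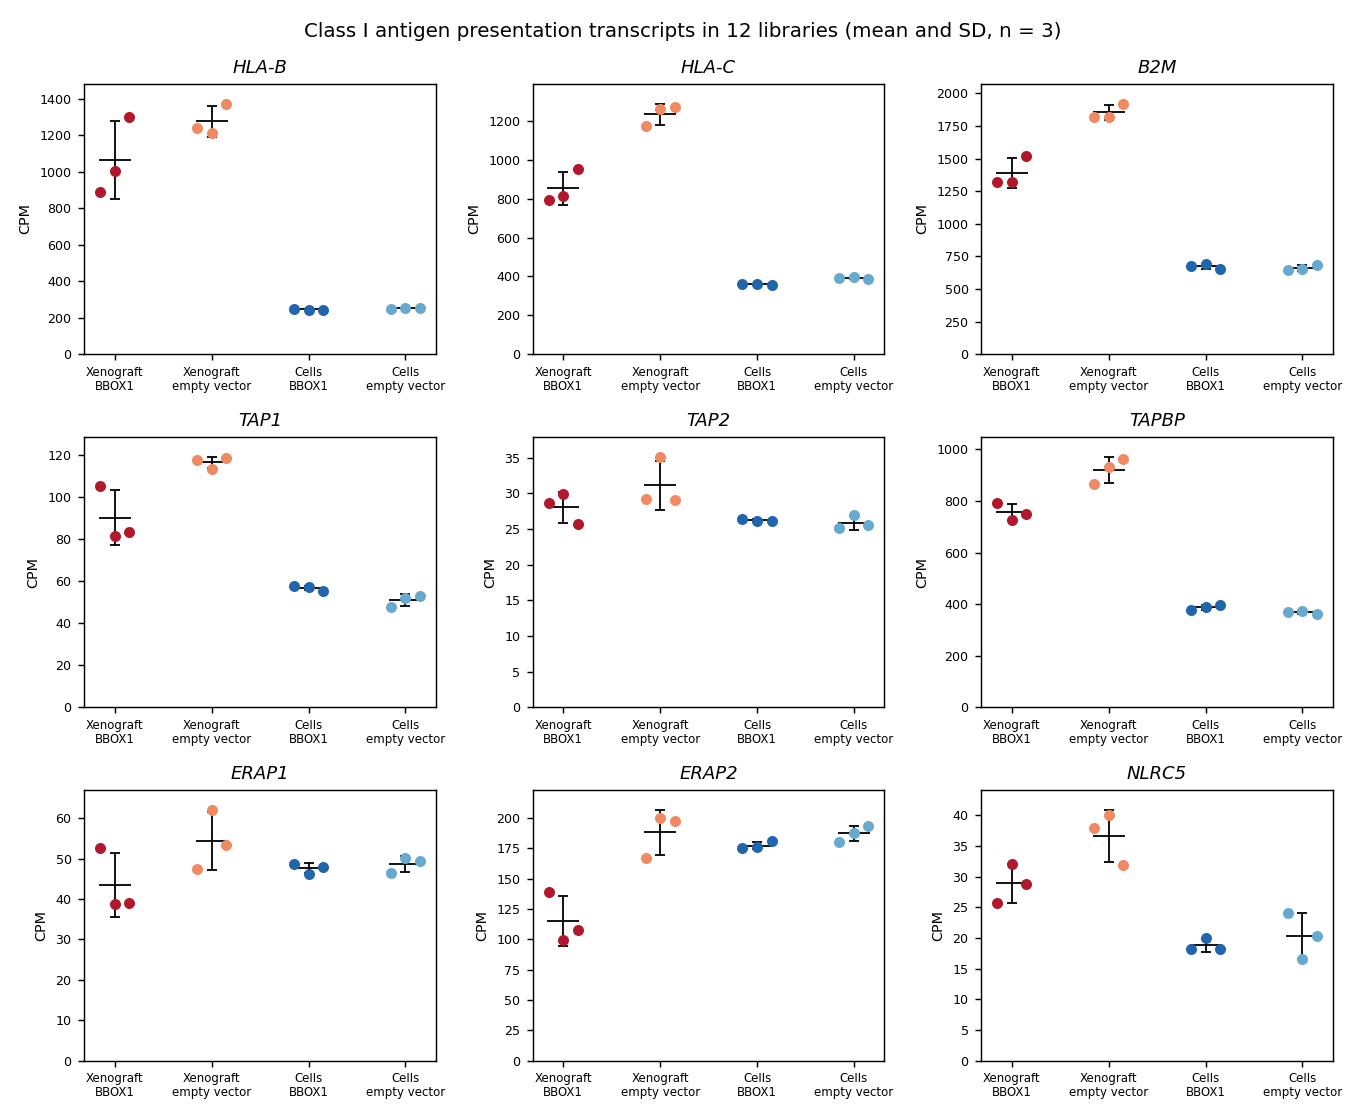
Level of each of the 9 class I members in CPM (vertical axis, from 0) in the 4 groups; points are libraries, the long dash is the mean and bars are the SD (n = 3). HLA-B, HLA-C, B2M, TAP1 and TAPBP libraries from xenografts sit above every culture library, and ERAP2 is lowest in BBOX1 xenografts.

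The heavy chains, which bind the peptide, showed the largest shift of the members between xenografts and culture. HLA-B (chr6:31269491-31357188 in GENCODE 29 on GRCh38, minus strand) had 888, 1001 and 1299.7 CPM in BBOX1 xenografts against 247, 244 and 245 CPM in BBOX1 cells. Under the empty vector, HLA-B had 1241, 1212 and 1372 CPM in xenografts against 247, 253 and 255 CPM in cells. Xenograft and culture libraries did not overlap under either vector, and the spread within the BBOX1 xenografts was the widest of the 4 groups. The fold was 4.39 with BBOX1 (log2 2.13, SE 0.14, n = 3 per group, edgeR adjusted p = 4.5e-06) and 5.11 with the empty vector (log2 2.35, SE 0.07, adjusted p = 5.59e-11).

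HLA-C (chr6:31268749-31272130, minus strand) is expressed at lower surface levels than HLA-B in many tissues and is the main ligand of NK-cell receptors of the KIR family. It had 796, 812 and 952 CPM in BBOX1 xenografts against 361, 363 and 356 CPM in BBOX1 cells. Empty-vector libraries had 1171.5, 1261.5 and 1269 CPM in xenografts against 393, 396 and 385 CPM in cells. Its libraries thus separated into 4 levels with no overlap, the empty-vector xenografts highest. The fold between settings was 2.40 with BBOX1 (log2 1.27, SE 0.10, n = 3 per group, edgeR adjusted p = 1.02e-05) and 3.18 with the empty vector (log2 1.67, SE 0.06, adjusted p = 4.83e-10). HLA-B and HLA-C are close paralogs that share 35 exon bases in GENCODE 29, so how reads were split between them by the authors' counting is uncertain. HLA-B also shares 17.8% of its exon bases with AL671883.2, a pseudogene on the opposite strand that held 8 counts over the 12 libraries.

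B2M (chr15:44711487-44718877, plus strand), the light chain that every class I heavy chain needs to reach the surface, was the member with the most counts. It had 1324, 1323 and 1519 CPM in BBOX1 xenografts against 675, 694 and 651 CPM in BBOX1 cells. The empty-vector libraries of B2M had 1821, 1819 and 1920.4 CPM in xenografts against 643, 653 and 687 CPM in cells. Every empty-vector xenograft was above every BBOX1 xenograft, while the cell groups overlapped. The fold between settings was 2.09 with BBOX1 (log2 1.06, SE 0.10, n = 3 per group, edgeR adjusted p = 2.2e-05) and 2.83 with the empty vector (log2 1.5, SE 0.07, adjusted p = 1.29e-09).

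The transporter subunits differed from each other. TAP1 (chr6:32845209-32853978, minus strand) had 105, 81.7 and 83.7 CPM in BBOX1 xenografts against 57.6, 57.3 and 55.6 CPM in BBOX1 cells. In the empty-vector groups TAP1 had 118, 114 and 119 CPM in xenografts against 47.7, 52.3 and 53.3 CPM in cells. TAP1 libraries from xenografts were above those from culture under both vectors, and BBOX1 xenograft replicate 1 was nearest to the empty-vector xenografts. The log2 fold change between settings was 0.68 with BBOX1 (SE 0.11, n = 3 per group, edgeR adjusted p = 0.00058) and 1.202 with the empty vector (SE 0.07, adjusted p = 8.72e-09).

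TAP2 (chr6:32821833-32838780, minus strand), which pairs with TAP1 in the pump, moved little. It had 28.6, 29.9 and 25.6 CPM in BBOX1 xenografts against 26.4, 26.1 and 26.1 CPM in BBOX1 cells. TAP2 in the empty-vector groups had 29.2, 35.1 and 29.1 CPM in xenografts against 25.1, 26.9 and 25.6 CPM in cells. The settings overlapped with BBOX1 (log2 0.12, SE 0.10, n = 3 per group, edgeR adjusted p = 0.322). They did not overlap with the empty vector, where TAP2 was higher by log2 0.28 (SE 0.09, edgeR adjusted p = 0.0164); that call was lost when cell library 1, cell library 3 or xenograft library 2 of that vector was omitted (highest adjusted p 0.0937). TAP2 shares 32.3% of its exon bases (2064 bases) with AL669918.1 on the same strand, which had 0 counts in the 12 libraries. TAP1 shares 9.49% with PSMB8-AS1 on the opposite strand. Reads from such bases cannot be told apart without strand or by position. Whether the authors' counting dropped reads that fall in shared bases is not stated. If it did, TAP2 was undercounted, and its level per kilobase and its ratio to TAP1 carry that uncertainty.

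TAPBP (chr6:33299694-33314387, minus strand), the chaperone that holds empty class I molecules at the transporter, had 792, 728 and 748 CPM in BBOX1 xenografts against 378, 387 and 397 CPM in BBOX1 cells. Its empty-vector values were 864, 931 and 964 CPM in xenografts against 369, 374 and 362 CPM in cells. None of the 4 groups overlapped another, and the gap between settings was far wider than that between vectors. The log2 fold change between settings was 0.98 with BBOX1 (SE 0.08, n = 3 per group, edgeR adjusted p = 1.69e-05) and 1.33 with the empty vector (SE 0.07, adjusted p = 3.43e-09).

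The trimming enzymes are neighbours in opposite orientation on chromosome 5. With all libraries kept and no correction for length and GC content, neither was called higher in xenografts. With that correction ERAP1 and ERAP2 were higher with the empty vector, by log2 0.54 and 0.39 (edgeR adjusted p = 0.000153 and 0.000314). ERAP1 was then at 0.22 with BBOX1 (edgeR adjusted p = 0.0583). ERAP1 (chr5:96760810-96808100, minus strand), which cuts longer precursors to the length that class I holds, had 52.5, 38.8 and 39.1 CPM in BBOX1 xenografts against 48.6, 46.3 and 48.0 CPM in BBOX1 cells. ERAP1 with the empty vector had 47.6, 62.1 and 53.5 CPM in xenografts against 46.4, 50.2 and 49.5 CPM in cells. Settings overlapped under both vectors, and the log2 fold change was -0.11 with BBOX1 (SE 0.13, 95% interval -0.40 to 0.17, n = 3 per group, edgeR adjusted p = 0.446) and 0.17 with the empty vector (SE 0.09, interval -0.03 to 0.37, adjusted p = 0.111). Leaving out BBOX1 xenograft replicate 1 gave a call (log2 -0.33, adjusted p = 0.000917, the lowest of the 6 omissions; the highest was 0.772), and leaving out empty-vector xenograft replicate 1 gave one in the other direction (log2 0.26, adjusted p = 0.0132, highest 0.541). ERAP1 shares 3.76% of its exon bases with CAST on the opposite strand.

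ERAP2 (chr5:96875939-96919716, plus strand), which prefers other residues than ERAP1 and is lost where both copies carry a common splice haplotype, was expressed in all libraries of this line. It had 139, 99.2 and 108 CPM in BBOX1 xenografts against 175, 176 and 181 CPM in BBOX1 cells. ERAP2 with the empty vector had 167, 199.7 and 198 CPM in xenografts against 181, 188 and 193 CPM in cells. With BBOX1 the xenografts were all below the cells, and with the empty vector the settings overlapped. The log2 fold change was -0.60 with BBOX1 (SE 0.13, n = 3 per group, edgeR adjusted p = 0.00225), a fall, and 0.02 with the empty vector (SE 0.07, 95% interval -0.14 to 0.18, adjusted p = 0.824). The fall with BBOX1 was -0.27 with the length and GC correction (edgeR adjusted p = 0.0208).

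NLRC5 (chr16:56989485-57083531, plus strand), the transactivator of class I genes, had the fewest counts of the members in culture and lay near TAP2 in xenografts. It had 25.8, 32.1 and 28.8 CPM in BBOX1 xenografts against 18.3, 19.96 and 18.2 CPM in BBOX1 cells. NLRC5 with the empty vector had 37.9, 40.1 and 31.9 CPM in xenografts against 24.1, 16.6 and 20.3 CPM in cells. Xenografts were above cells under both vectors, with a log2 fold change of 0.64 with BBOX1 (SE 0.12, n = 3 per group, edgeR adjusted p = 0.00101) and 0.86 with the empty vector (SE 0.13, adjusted p = 6.75e-05).

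**Figure D2:**
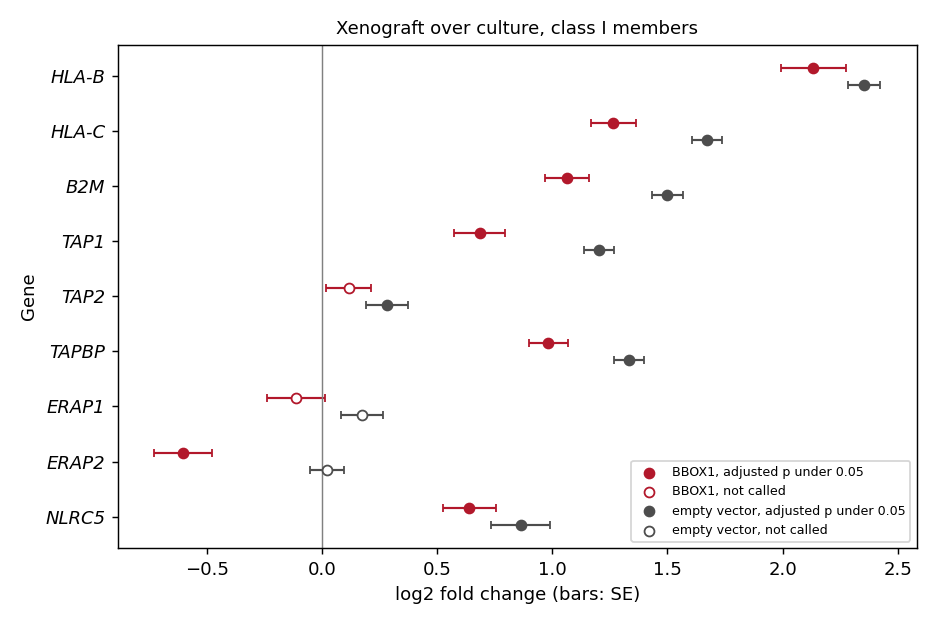
Log2 fold change of each member (rows) in xenografts over culture, with BBOX1 (red) and with the empty vector (grey); bars are SE, filled points have an edgeR adjusted p under 0.05 (n = 3 per group). HLA-B lies farthest to the right at 2.13 and 2.35, and ERAP2 with BBOX1 is the point called to the left, at -0.60.

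Across the members, 6 of 9 were higher and 1 lower in BBOX1 xenografts than in BBOX1 cells, where 68.2% of all tested genes were called, 36.1% higher and 32.1% lower. Of the 9, 7 were higher and 0 lower in empty-vector xenografts than in empty-vector cells, where 68.6% of all tested genes were called, 35.5% higher and 33.1% lower (edgeR; 7 members also had an unadjusted p under 0.05). The share of members called in either direction was thus close to that of all genes, and 6 and 7 of the calls were in the higher direction. Their median log2 fold change was 0.68 with BBOX1 and 1.2 with the empty vector, beside 0.07 and 0.04 over all genes tested. CPM of the 2 settings did not overlap for 7 members with BBOX1, where 74.1% of all genes did not overlap (37.8% higher, 36.3% lower), and for 7 with the empty vector, where 73.2% did not (36.9% higher, 36.3% lower). Together the 9 genes took 0.436% of counts in BBOX1 xenografts and 0.551% in empty-vector xenografts, against 0.201% in BBOX1 cells and 0.205% in empty-vector cells. Without BBOX1 xenograft replicate 1 the counts with BBOX1 were 6 higher and 2 lower, with 76% of all genes called. The log2 values with BBOX1 were then 2.19 for HLA-B, 1.25 for HLA-C, 1.04 for B2M, 0.89 for TAPBP, 0.66 for NLRC5, 0.4995 for TAP1, 0.04 for TAP2, -0.33 for ERAP1 and -0.82 for ERAP2. In bulk RNA, fewer cells of a type and less RNA per cell cannot be told apart.

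Human genes that mark other cell types were read beside this shift, although host cells in these tumours are those of the mouse. The summed level of 12 leukocyte genes was 3.09 to 4.46 CPM in BBOX1 xenografts and 4.97 to 7.34 CPM in empty-vector xenografts, against 2.39 to 3.49 CPM in BBOX1 cells and 3.60 to 4.89 CPM in empty-vector cells, and CD3E, LYZ, AIF1 and TYROBP were at 0 in all 12 libraries. A list of 7 endothelial genes summed to at most 2.20 CPM, with CDH5 at 0 throughout, and 5 erythroid genes to at most 0.768 CPM, with HBB and HBA1 at 0 throughout. Of 8 fibroblast and pericyte genes, 4 averaged at least 1 CPM in each xenograft group; the list summed to 272.6 to 382 CPM in BBOX1 xenografts and 258 to 443 CPM in empty-vector xenografts, against 10.96 to 12.7 CPM in BBOX1 cells and 11.4 to 13.3 CPM in empty-vector cells. COL1A1 led that list, averaging 242.6 and 189.9 CPM in BBOX1 and empty-vector xenografts, against 6.95 and 6.8 CPM in BBOX1 and empty-vector cells. COL3A1 averaged 82.9 and 115.5 CPM in those xenografts, against 0.109 and 0.0199 CPM in those cells. RGS5 was at 15.1 and 12.96 CPM in those xenografts, against 2.295 and 2.83 CPM in those cells. LUM averaged 21.4 CPM in empty-vector xenografts and 1.48 CPM in empty-vector cells. Its BBOX1 libraries overlapped, at 2.65 CPM in xenografts and 1.75 CPM in cells. DES was at 0 in cells and DCN at 0 in empty-vector xenografts. The receptor genes of the list did not rise with the sum. PDGFRB averaged 0.39 and 0.38 CPM in BBOX1 and empty-vector xenografts, against 0.83 and 1.30 CPM in BBOX1 and empty-vector cells. PDGFRA averaged 0.046 and 0.039 CPM in those xenografts, against 0.078 and 0.14 CPM in those cells. Whether the counts of these genes came from the line or from mouse reads was not tested. The part of mouse reads in the class I shift was not tested either.

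To compare levels between genes, CPM was divided by the length of each gene's principal transcript in kilobases. B2M was highest in every group, at 814 ± 66.2 and 1087 ± 34.0 CPM per kilobase in BBOX1 and empty-vector xenografts, against 395 ± 12.5 and 388 ± 13.7 in BBOX1 and empty-vector cells (SD, n = 3). Cultured cells then ran in the order HLA-C, TAPBP, HLA-B, ERAP2, TAP1, TAP2, ERAP1 and NLRC5 under both vectors. Xenografts ran HLA-B, HLA-C, TAPBP, TAP1, ERAP2, TAP2, ERAP1 and NLRC5 under both vectors, so on this scale HLA-B overtook HLA-C and TAPBP, and TAP1 overtook ERAP2.

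Some neighbours in that order did not differ beyond their spread. HLA-B and HLA-C stood at 824 ± 55.1 and 803 ± 35.4 CPM per kilobase in empty-vector xenografts, and at 687 ± 138 and 556 ± 56.1 in BBOX1 xenografts, where HLA-B also overlapped B2M. The SD ranges of TAP2 and ERAP1 overlapped in empty-vector xenografts, at 12.5 ± 1.37 and 9.89 ± 1.33 CPM per kilobase. Their libraries did not overlap there, with TAP2 the higher. At the low end NLRC5 stood at 4.24 ± 0.47 and 5.37 ± 0.62 CPM per kilobase in BBOX1 and empty-vector xenografts, against 2.76 ± 0.15 and 2.98 ± 0.55 in BBOX1 and empty-vector cells. Divided by all exon bases of a gene instead, B2M, whose models include long transcripts, came below HLA-C in culture (111 against 144 CPM per kilobase with BBOX1, and 109 against 156 with the empty vector). It came below both heavy chains in xenografts on that scale, at 228 with BBOX1 and 305 with the empty vector. The order of the other members also depended on the length used: in empty-vector xenografts HLA-B (418) was then below HLA-C (492) and TAP1 (24.3) below ERAP2 (25.4 CPM per kilobase), and TAP2 was below ERAP1 in all 4 groups.

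Ratios within a library do not depend on its scaling. HLA-C over HLA-B counts were 0.896, 0.812 and 0.733 in BBOX1 xenografts and 0.944, 1.04 and 0.925 in empty-vector xenografts, against 1.46, 1.49 and 1.45 in BBOX1 cells and 1.59, 1.56 and 1.51 in empty-vector cells. The heavy chains thus changed places: HLA-C had more counts than HLA-B in all 6 cell libraries and fewer in 5 of 6 xenograft libraries. B2M over HLA-B counts averaged 1.33 ± 0.16 in BBOX1 xenografts and 1.46 ± 0.05 in empty-vector xenografts, against 2.75 ± 0.09 in BBOX1 cells and 2.63 ± 0.06 in empty-vector cells (SD, n = 3). TAP1 over TAP2 averaged 3.23 ± 0.48 and 3.78 ± 0.47 in BBOX1 and empty-vector xenografts, against 2.17 ± 0.04 and 1.98 ± 0.10 in BBOX1 and empty-vector cells. For these 3 ratios xenografts and cells did not overlap under either vector, and each exact two-sided permutation p was 0.1, the smallest that 3 against 3 libraries allow.

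ERAP2 over ERAP1 set the BBOX1 xenografts apart. It was 2.64, 2.56 and 2.75 in BBOX1 xenografts and 3.51, 3.22 and 3.70 in empty-vector xenografts, against 3.60, 3.80 and 3.77 in BBOX1 cells and 3.89, 3.74 and 3.90 in empty-vector cells. Every BBOX1 xenograft, replicate 1 included, was below every other library. The exact two-sided permutation p of BBOX1 against empty-vector xenografts was 0.1 (n = 3 per group), again the smallest this design allows.

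**Figure D3:**
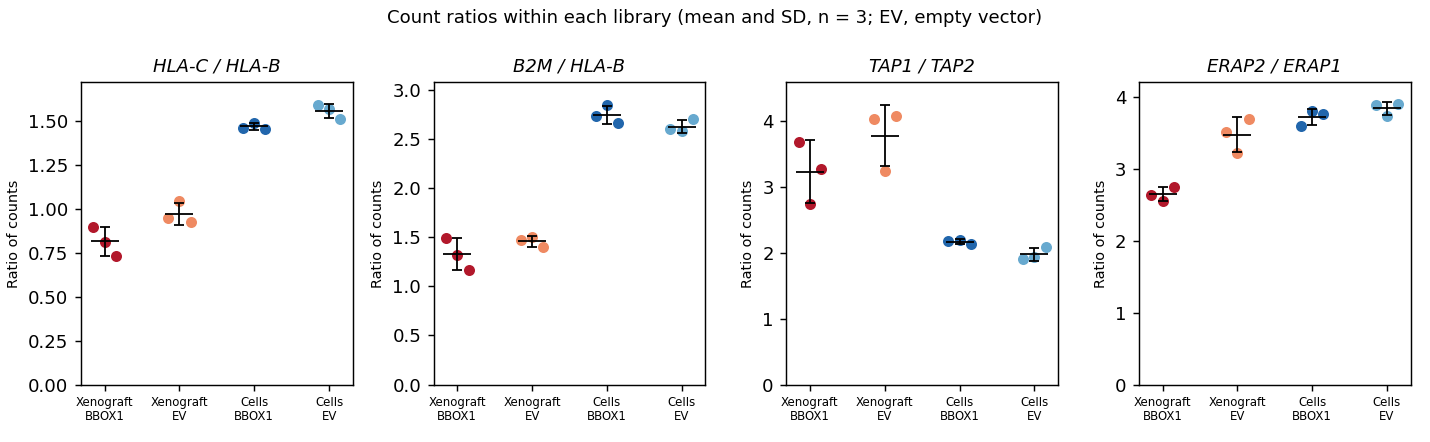
Ratios of counts between pairs of members in each library (vertical axis, from 0) for the 4 groups; points are libraries, dashes means and bars SD (n = 3). HLA-C over HLA-B is under 1 on average in both xenograft groups and about 1.5 in both cell groups, and ERAP2 over ERAP1 is lowest in BBOX1 xenografts.

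The next comparison asked what BBOX1 re-expression changed. In xenografts all 9 members had a lower mean with BBOX1, and 2 passed the test. HLA-C averaged 853 ± 86.1 CPM in BBOX1 xenografts and 1234 ± 54.3 CPM in empty-vector xenografts (SD, n = 3 each), a fall by 0.53 on the log2 scale (SE 0.13, edgeR adjusted p = 0.043). ERAP2 averaged 115 ± 20.9 CPM in BBOX1 xenografts and 188 ± 18.5 CPM in empty-vector xenografts, a fall by 0.70 on the log2 scale (SE 0.15, edgeR adjusted p = 0.0236). Of all tested genes 5.54% were called, 3.63% as lower and 1.91% as higher.

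The other members had log2 values of -0.41 (B2M, SE 0.13), -0.36 (TAP1, SE 0.13), -0.34 (NLRC5, SE 0.14), -0.32 (ERAP1, SE 0.15), -0.28 (TAPBP, SE 0.12), -0.26 (HLA-B, SE 0.16) and -0.15 (TAP2, SE 0.13), with edgeR adjusted p of 0.086 to 0.52 (n = 3 per group). The median of the 9 was -0.34, beside 0.02 over all genes tested, and 6 had an unadjusted p under 0.05. CPM did not overlap for HLA-C, B2M, TAP1, TAPBP and ERAP2, which makes 5 of 9 members lower without overlap, against 15.4% of all genes (13.9% were higher without overlap and 29.2% in either direction). The 95% interval for HLA-B ran from -0.61 to 0.09 and that for TAP2 from -0.44 to 0.15, so moderate falls of either were not distinguished from no change.

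How many members were called depended on single libraries, from 0 to 6 over the 6 omissions. Without BBOX1 xenograft replicate 1, 6 of 9 were called lower (HLA-C, B2M, TAP1, TAPBP, ERAP1 and ERAP2), but 25.8% of all genes were called then. HLA-C lost its call whenever 1 of the other 5 libraries was omitted (highest edgeR adjusted p 0.199). ERAP2 lost it on omission of library 2 or 3 of either group (highest adjusted p 0.127). Their log2 values stayed between -0.61 and -0.48 and between -0.86 and -0.61 over all 6 omissions. Both calls were also lost with total counts as library size (edgeR, log2 -0.49 for HLA-C, adjusted p = 0.0502, and -0.65 for ERAP2, adjusted p = 0.0558) and kept in DESeq2 (adjusted p = 0.000836 and 0.000491).

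Genes of the fibroblast and pericyte list moved between these groups in part. LUM, a matrix proteoglycan, had 0.755, 3.29 and 3.90 CPM in BBOX1 xenografts against 17.0, 30.9 and 16.4 CPM in empty-vector xenografts, a log2 fold change of -3.001 (SE 0.43, n = 3 per group, edgeR adjusted p = 0.00372) that was called in all 6 omissions. COL3A1 averaged 82.9 CPM in BBOX1 xenografts and 115.5 CPM in empty-vector xenografts, without overlap (log2 -0.47, edgeR adjusted p = 0.0999), and was called without BBOX1 xenograft replicate 1 (adjusted p = 0.00935). COL1A1 averaged 243 CPM in BBOX1 xenografts and 190 CPM in empty-vector xenografts (log2 0.36, edgeR adjusted p = 0.483). Of the list's 8 genes 4 were tested, 0 called higher and 1 lower, where 5.54% of all tested genes were called. The list's summed ranges overlapped. The source of these counts, and its part in the class I values, was not tested.

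In cultured cells the differences were small beside a small spread. HLA-C averaged 360 ± 3.66 CPM in BBOX1 cells and 391 ± 5.51 CPM in empty-vector cells (SD, n = 3 each), a fall by 0.12 on the log2 scale (SE 0.03, edgeR adjusted p = 0.000864). TAP1 averaged 56.9 ± 1.07 CPM in BBOX1 cells and 51.1 ± 2.94 CPM in empty-vector cells, a rise by log2 0.15 (SE 0.05, edgeR adjusted p = 0.0309). So 1 member rose and 1 fell, where 16.4% of all tested genes were called, 8.53% higher and 7.86% lower.

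The remaining 7 members in culture had log2 values from -0.12 (NLRC5, SE 0.10) to 0.07 (TAPBP, SE 0.03), with edgeR adjusted p of 0.0725 to 0.898 (n = 3 per group). CPM did not overlap for HLA-B and HLA-C, which were lower with BBOX1, and for TAP1 and TAPBP, which were higher, 4 of 9 members against 31% of all genes (15.9% higher, 15.1% lower). The 95% interval for B2M was -0.03 to 0.08 on the log2 scale, and with a length and GC correction it was called higher (log2 0.068, edgeR adjusted p = 0.0263). TAP1 lost its call on omission of BBOX1 library 1, BBOX1 library 2 or empty-vector library 1 (highest edgeR adjusted p 0.16), and HLA-C kept its call in all 6 omissions. TAPBP gained one on omission of BBOX1 library 1 and ERAP2 on omission of empty-vector library 1 (lowest edgeR adjusted p 0.0449 and 0.0398). With total counts as library size TAP1 lost its call (edgeR, log2 0.14, adjusted p = 0.0531) and ERAP2 was called lower (log2 -0.096, adjusted p = 0.034), and in DESeq2 TAP1 was not called (adjusted p = 0.0693). With 1 spread shared by all 12 libraries, 0 members and 2 genes in all were called in culture (edgeR).

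**Figure D4:**
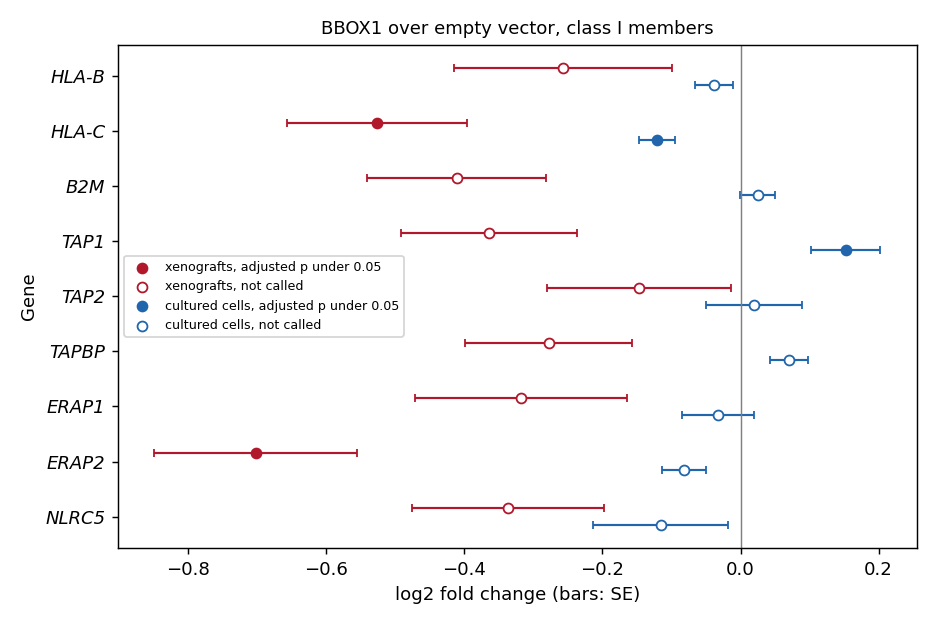
Log2 fold change of each member (rows) with BBOX1 over the empty vector, in xenografts (red) and cultured cells (blue); bars are SE, filled points have an edgeR adjusted p under 0.05 (n = 3 per group). All 9 xenograft points are below 0, from -0.15 for TAP2 to -0.70 for ERAP2, while the culture points lie between -0.12 and 0.15.

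Whether the BBOX1 effect differed between settings was tested directly, as the BBOX1 log2 fold change in xenografts minus that in cells, in a fit of all 12 libraries. The difference was -0.63 for ERAP2 (SE 0.15, edgeR adjusted p = 0.0307), -0.52 for TAP1 (SE 0.13, adjusted p = 0.0348) and -0.44 for B2M (SE 0.11, adjusted p = 0.0357), so 3 of 9 members were called, all lower in xenografts, where 5.19% of all tested genes were called, 3.26% lower and 1.93% higher. It was -0.41 for HLA-C (SE 0.12, edgeR adjusted p = 0.0509) and -0.36 for TAPBP (SE 0.10, adjusted p = 0.0586), and between -0.29 and -0.17 for ERAP1, NLRC5, HLA-B and TAP2 (n = 3 per group). The median of the 9 was -0.36, beside -0.00037 over all genes tested. For TAP1 the direction differed by setting: the BBOX1 mean was below the empty-vector mean in xenografts and above it in culture. Over the 12 single omissions, the call was lost in 9 for B2M, in 10 for TAP1 and in 9 for ERAP2 (highest edgeR adjusted p 0.108, 0.107 and 0.0898), and HLA-C gained one in 3. With total counts as library size all 3 calls were lost (edgeR adjusted p = 0.0554 for B2M, 0.115 for TAP1 and 0.0905 for ERAP2), and in DESeq2 all 3 were kept (adjusted p = 0.000209, 0.00719 and 0.00584). Without BBOX1 xenograft replicate 1, 6 of 9 members were called lower, with 24% of all genes called.

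Other genes of the class I pathway, 13 in a list that holds peptide-producing and peptide-loading proteins and nonclassical heavy chains, were also mostly higher in xenografts. HLA-G did not pass the filter on low counts. Of the 12 tested, 9 were higher and 2 lower in BBOX1 xenografts than in BBOX1 cells (median log2 0.83). With the empty vector 10 were higher and 2 lower in xenografts than in cells (median 1.24). Of all tested genes 36.1% were higher and 32.1% lower with BBOX1, and 35.5% were higher and 33.1% lower with the empty vector. HLA-F, a nonclassical heavy chain, had 32.2, 58.0 and 65.1 CPM in BBOX1 xenografts against 4.79, 4.94 and 4.91 CPM in BBOX1 cells (log2 3.43, SE 0.26, n = 3 per group, edgeR adjusted p = 8.09e-06). HLA-E, the ligand of the inhibitory receptor NKG2A, was higher in xenografts by log2 1.19 with BBOX1 (SE 0.09, edgeR adjusted p = 1.12e-05) and by 1.33 with the empty vector (SE 0.06, adjusted p = 2.72e-09). The tapasin relative TAPBPL was higher by log2 1.70 with BBOX1 (SE 0.15) and by 2.41 with the empty vector (SE 0.12).

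The catalytic subunits of the immunoproteasome rose together. The gene model of PSMB9 in GENCODE 29 spans TAP1 on the opposite strand without sharing exon bases with it. PSMB9 was higher in xenografts by log2 1.79 with BBOX1 (SE 0.14, edgeR adjusted p = 1.14e-05, n = 3 per group) and 2.29 with the empty vector (SE 0.08, edgeR adjusted p = 1.37e-10). PSMB8 was higher by 1.24 with BBOX1 (SE 0.12) and 1.56 with the empty vector (SE 0.07), and PSMB10 by 0.84 with BBOX1 (SE 0.14) and 1.32 with the empty vector (SE 0.10). Both subunits of the PA28 alpha-beta activator, PSME1 and PSME2, were higher, by 0.62 and 0.81 with BBOX1 and by 1.12 and 1.16 with the empty vector.

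Genes of general protein turnover and folding did not follow as one. PSME3, of the nuclear PA28 gamma activator, was lower in xenografts, with a log2 fold change of -1.29 with BBOX1 (SE 0.17) and -0.95 with the empty vector (SE 0.07), and the lectin chaperone CANX stood at -0.92 with BBOX1 (SE 0.15) and -0.47 with the empty vector (SE 0.07), both called. The oxidoreductase PDIA3 of the loading complex was higher by 0.64 with BBOX1 (SE 0.13) and 0.82 with the empty vector (SE 0.06). CALR was higher with the empty vector (log2 0.48, SE 0.08) and at 0.27 with BBOX1 (SE 0.14, edgeR adjusted p = 0.108), where leaving out BBOX1 xenograft replicate 1 gave a call. Of 14 core subunits of the constitutive proteasome, 1 was higher and 9 lower with BBOX1 (median log2 -0.37). With the empty vector 1 was higher and 7 lower (median -0.17). The shares over all tested genes were 36.1% higher and 32.1% lower with BBOX1, and 35.5% higher and 33.1% lower with the empty vector.

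**Figure D5:**
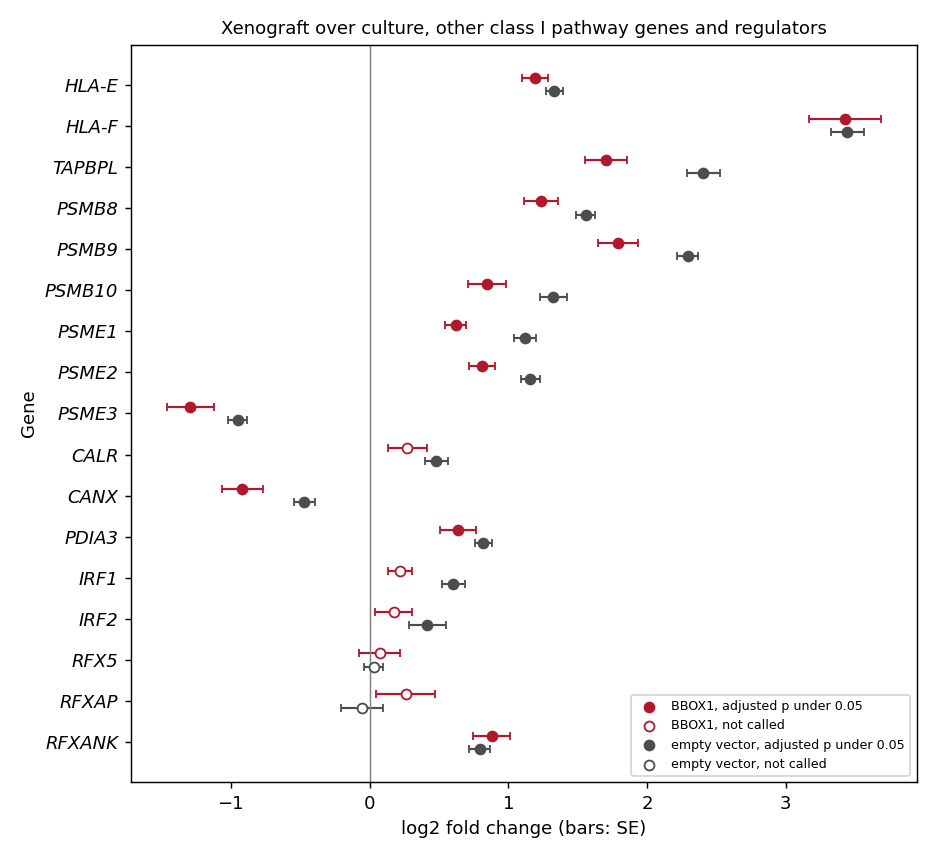
Log2 fold change in xenografts over culture of other class I pathway genes and of regulators (rows), with BBOX1 (red) and with the empty vector (grey); bars are SE, filled points have an edgeR adjusted p under 0.05 (n = 3 per group). HLA-F lies at 3.43 and 3.44, the immunoproteasome subunits PSMB8, PSMB9 and PSMB10 at 0.84 or more, and PSME3 and CANX below 0.

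Regulators of class I transcription moved unevenly. RFXANK, a subunit of the RFX complex, was higher in xenografts by log2 0.88 with BBOX1 (SE 0.13, edgeR adjusted p = 0.00036, n = 3 per group) and by 0.79 with the empty vector (SE 0.08, adjusted p = 1.09e-06), while its partners RFX5 and RFXAP had values from -0.05 to 0.26 and were not called. Of 9 transactivators and promoter factors 2 were higher and 3 lower under each vector. That was a smaller share called than among all tested genes, at 68.2% with BBOX1 and 68.6% with the empty vector. Besides RFXANK, NFYC was higher, and CREB1, ATF1 and NFYA were lower. Without BBOX1 xenograft replicate 1 the counts with BBOX1 were 2 higher and 5 lower, RFX5 among the lower ones (log2 -0.19, edgeR adjusted p = 0.0317). In that fit 76% of all genes were called. The call of NFYA with BBOX1 was lost without BBOX1 cell library 1 (adjusted p = 0.0533).

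In the interferon path to class I, the receptor chain IFNGR2 was higher in xenografts by log2 1.63 with BBOX1 (SE 0.09, edgeR adjusted p = 2.27e-06, n = 3 per group) and by 1.95 with the empty vector (SE 0.09, adjusted p = 2.97e-09). STAT2 was higher by 1.65 with BBOX1 (SE 0.13) and 0.9996 with the empty vector (SE 0.0997). IRF1, which drives class I promoters, was higher with the empty vector by 0.60 (SE 0.08, adjusted p = 3.08e-05) and at 0.22 with BBOX1 (SE 0.09, adjusted p = 0.0538). IRF2 was at 0.17 with BBOX1 (SE 0.13, adjusted p = 0.272) and higher by 0.42 with the empty vector (SE 0.13, adjusted p = 0.0133), a call lost when library 2 of either empty-vector group was omitted (highest adjusted p 0.0836). Of 14 tested genes of this list 6 were higher and 2 lower with BBOX1, and 10 higher and 3 lower with the empty vector. Beside these counts, 68.2% of all tested genes were called with BBOX1 and 68.6% with the empty vector. The interferon genes IFNB1 and IFNG did not pass the filter on low counts.

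Interferon-induced genes outside the class I pathway were mostly higher in xenografts too. Of 17, 15 were higher and 1 lower in BBOX1 xenografts than in BBOX1 cells (median log2 1.80). With the empty vector 14 were higher and 0 lower in xenografts than in cells (median 1.82), and 14 had an unadjusted p under 0.05 in edgeR. Over all tested genes, 36.1% were higher and 32.1% lower with BBOX1, and 35.5% higher and 33.1% lower with the empty vector. IFI27 had 64.5, 105 and 122 CPM in BBOX1 xenografts against 2.19, 1.14 and 2.52 CPM in BBOX1 cells (log2 5.65, SE 0.32, n = 3 per group, edgeR adjusted p = 1.95e-06). IFITM3 was higher by log2 2.40 (SE 0.20) with BBOX1 and by 2.67 (SE 0.08) with the empty vector. IFIT2 was not called under either vector, and IFIT3 was lower with BBOX1 at -0.53 (SE 0.10, adjusted p = 0.0014). Among NF-kappaB factors, which bind an upstream element of class I promoters, RELB and NFKB2 were higher and RELA and REL lower under both vectors. NFKBIA, which encodes an inhibitor of these factors and binds no promoter, was also higher under both vectors. The call of RELA with the empty vector (log2 -0.15) was lost in 4 of 6 single omissions (highest edgeR adjusted p 0.0966).

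For BBOX1 in xenografts these lists showed few calls, where 5.54% of all tested genes were called (1.91% higher, 3.63% lower). Of the other pathway genes 0 were higher and 1 was lower: PSME1 averaged 143 ± 4.14 CPM in BBOX1 xenografts and 213 ± 21.9 CPM in empty-vector xenografts (SD, n = 3 each). It was at -0.57 on the log2 scale (SE 0.12, edgeR adjusted p = 0.0236), a difference not called in 4 of 6 single omissions (highest adjusted p 0.156). All 12 tested had a negative log2 value (median -0.27), the smallest in size that of HLA-F, at -0.0030 (SE 0.21). Of 17 interferon-induced genes 0 were called in edgeR, 0 had an unadjusted p under 0.05, and the median was 0.06. SOCS3, a feedback inhibitor of JAK signalling, was lower at -0.76 (SE 0.13, adjusted p = 0.0102; lost when empty-vector library 2 was omitted, adjusted p = 0.069). The core proteasome subunits PSMB5 and PSMA4 were lower at -0.51 (SE 0.11, adjusted p = 0.0259) and -0.43 (SE 0.11, adjusted p = 0.0425), and each was lost in 5 of 6 omissions (highest adjusted p 0.192). Without BBOX1 xenograft replicate 1, 5 of 12 other pathway genes were lower, 2 of 14 interferon-signalling genes were higher (STAT2 and TYK2) and 4 lower, and 1 of 17 interferon-induced genes was higher, with 25.8% of all genes called.

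In culture BBOX1 moved these lists by small amounts. HLA-E rose by log2 0.11 (SE 0.04, edgeR adjusted p = 0.0402, n = 3 per group) but was not called in 4 of 6 single omissions (highest adjusted p 0.243). CALR rose by 0.10 (SE 0.02, adjusted p = 0.000777) and PDIA3 fell by 0.09 (SE 0.02, adjusted p = 0.00777; lost when empty-vector library 2 was omitted, adjusted p = 0.0602). Among interferon-induced genes BST2, which tethers virions to the cell surface, rose by 0.49 (SE 0.03, adjusted p = 1.58e-13), and IFIT3, ISG15 and OAS3 rose by 0.31, 0.24 and 0.16; OAS3 was lost when empty-vector library 2 was omitted (adjusted p = 0.0505). NFKB2 and RELB rose by 0.32 each (edgeR adjusted p = 3.05e-06 and 0.0161), and RELB was lost in 2 of 6 omissions (highest adjusted p 0.0862).

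Genes whose pattern was most like that of B2M were sought by the root mean square difference of mean-centred log2 CPM over the 12 libraries, among 507 protein-coding genes that passed a floor set relative to its own mean level. The nearest were ADGRG1, an adhesion receptor (0.08 log2 units), S100A10, the annexin A2 partner (0.11), the lysosomal protease CTSZ (0.15), the lactonase PON2 (0.15) and the calpain subunit CAPNS1 (0.15). ADGRG1 averaged 1151 and 1478 CPM in BBOX1 and empty-vector xenografts, against 536 and 542 CPM in BBOX1 and empty-vector cells. Among the members themselves, TAPBP and HLA-C were nearest to B2M, at 0.11 and 0.12, then TAP1 at 0.21, NLRC5 at 0.32, HLA-B at 0.49, TAP2 at 0.57, ERAP1 at 0.65 and ERAP2 at 0.81.

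For NLRC5 the nearest of 10301 genes were ZFYVE19 (0.11), SAYSD1 (0.13), TMEM107 (0.13), RNF103 (0.14) and MAPK3 (0.14). No member was among the nearest: TAP1, the nearest member at 0.25, would rank at place 610 among them, and HLA-B, at 0.77, was the farthest member. NLRC5 counts were 0.0209 ± 0.0029 of B2M counts in BBOX1 xenografts and 0.0198 ± 0.0029 in empty-vector xenografts, against 0.0279 ± 0.0009 in BBOX1 cells and 0.0308 ± 0.0061 in empty-vector cells (SD, n = 3). They were lower in xenografts without overlap under both vectors (exact two-sided permutation p = 0.1 each, the smallest possible here). The order of members by their change between settings (HLA-B, HLA-C, B2M, TAPBP, TAP1, NLRC5, TAP2) was the same under both vectors, ahead of ERAP1 and ERAP2; without BBOX1 xenograft replicate 1, NLRC5 came ahead of TAP1 with BBOX1.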

How the data were processed

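Poly(A) RNA was prepared with NEBNext Ultra chemistry, which keeps no strand information, and sequenced from both ends, per the labels' protocols. The values used are whole-number read counts per gene as deposited by the authors, without normalisation. The submitters' processing notes name hg38 with fastp, STAR, featureCounts and DESeq2. Versions, annotation release and any step against mouse reads are not stated there. Identifiers and names, 58735 in all, matched GENCODE 29, which gave coordinates and lengths; sequences are from RefSeq.

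Groups and replicate numbers came from sample titles. Counts were tested with edgeR 4.0.16 in R 4.3.3, with TMM scaling, filterByExpr at a minimum count of 10, quasi-likelihood F tests over all genes and Benjamini-Hochberg adjustment at 0.05. Each comparison was fitted on its 6 libraries, and the difference of the BBOX1 effect on all 12. SE is the absolute log2 fold change over the square root of F, approximate where the change is near 0. Ratios were compared by exact permutation. The designs were tested on simulated data.

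Alternatives were DESeq2 1.42.0 and its size factors, total counts as library size, no filter or 1 CPM in 3 libraries, protein-coding genes alone, a length and GC correction (splines with 4 degrees of freedom), the replicate block, 1 fit of all libraries, and each library left out. The rule for named genes takes the 9 members, BBOX1, up to 3 genes of smallest p from each context list and comparison, a set of regulators and loading factors in any case, and the 5 genes nearest to B2M and to NLRC5 among genes of comparable or higher level. A part is printed, some named genes are not reported here, and other list members were named after their values were seen. Members, lists, tests and motifs were chosen with earlier results of these data known. Context-list calls without BBOX1 xenograft replicate 1 were added after seeing the data.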

Additional observations from a re-analysis of the deposited data

Results flagged for a closer look

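For 3 members the BBOX1 effect differed between the settings by a direct test (edgeR, all 12 libraries, n = 3 per group, xenografts minus cells on the log2 scale). For B2M the difference was -0.44, from a BBOX1 log2 fold change of -0.41 in xenografts and 0.03 in cells. TAP1 differed by -0.52, with -0.36 in xenografts and 0.15 in cells, and ERAP2 by -0.63, with -0.70 in xenografts and -0.08 in cells. Each of these calls was lost when 1 of several libraries was left out, cell libraries included, and none of the 3 lost its direction in the 12 omissions: B2M ranged from -0.51 to -0.41, TAP1 from -0.67 to -0.46 and ERAP2 from -0.80 to -0.53. All 3 calls were also lost with total counts as library size (edgeR adjusted p = 0.0554 for B2M, 0.115 for TAP1 and 0.0905 for ERAP2) and kept in DESeq2.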

How the results depend on the processing

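Xenograft against culture kept 7 members called with BBOX1 and 6 to 9 with the empty vector under the 9 other settings tried. BBOX1 calls depended on the processing. In culture 2 members were called, 1 higher and 1 lower. With total counts 0 were higher and 2 lower, DESeq2 called 1, and 1 fit of all 12 libraries called 0. The length and GC correction called 3, with 1 higher (B2M, log2 0.068, edgeR adjusted p = 0.0263) and 2 lower. Those were HLA-C and HLA-B (log2 -0.10 for HLA-B, edgeR adjusted p = 0.00545), while TAP1 lost its call (edgeR adjusted p = 0.0686). In xenografts 2 were called, 0 with total counts as library size, 0 with the replicate block (adjusted p = 0.0881 for HLA-C and 0.0585 for ERAP2), 1 (ERAP2) among protein-coding genes and 5 in 1 fit of all libraries. For the difference between settings 3 were called, 0 with total counts, 5 under DESeq2 and 0 with the replicate block (edgeR adjusted p = 0.0949 for B2M, 0.0811 for TAP1 and 0.103 for ERAP2). With the length and GC correction TAP1 lost that call (edgeR adjusted p = 0.0504) and HLA-C gained one (edgeR adjusted p = 0.0493). Leaving out 1 library gave 1 to 2 in culture, 0 to 6 in xenografts and 0 to 6 for the difference, and between settings 7 to 8 with BBOX1 and 6 to 8 with the empty vector.

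Directions turned for uncalled values of at most 0.22 in size. With length and GC correction ERAP1 was at 0.0052 for BBOX1 in culture and at 0.22 for xenografts against culture with BBOX1, and with no filter TAP2 was at -0.022 there. ERAP2 with the empty vector was at -0.074 with total counts and -0.048 with no filter, and from -0.032 to 0.099 with 1 library left out; NLRC5 for BBOX1 in culture ranged from -0.24 to 0.022. With length and GC correction all 9 members were higher in empty-vector xenografts, ERAP1 by 0.54 and ERAP2 by 0.39. No filter moved the median of all genes between settings to 0.25 with BBOX1 and 0.15 with the empty vector.

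Over all genes, 2452 were called in culture, and 2 in 1 fit of 12 libraries. In xenografts 894 were called, 2205 with no filter, 1733 under DESeq2, 455 with the block, 3668 in 1 fit and 180 to 4301 with 1 library left out. The difference had 878, 1662 with no filter, 1693 under DESeq2, 276 with the block and 280 to 4182 with 1 left out. Replicate numbers are not stated to pair samples. Deviations of same-numbered libraries correlated at 0.01 to 0.04 in cells, -0.15 to 0.04 in xenografts and -0.03 to 0.03 across settings (14565 genes). With 3 libraries per group such values cannot show whether samples were paired. Of 72 group levels under other size factors, 8 moved by more than 1 SD. The cause of these shifts was not tested, and 3 libraries per group limit the precision of every BBOX1 value in xenografts.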
